A study of Homo sapiens with 4 samples.

Results

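EBC-CR2, a human lung cancer line selected for resistance to capmatinib, was set against EBC-CR1 and EBC-CR3, the other lines selected for resistance from the same parent. Of the 26364 gene symbols in each library, 14543 reached a log2(units + 1) level of 3.32, the log2 of 10, in at least 1 of the 3 resistant libraries and were compared. For each gene the log2 level in EBC-CR1 and that in EBC-CR3 were subtracted from the level in EBC-CR2, and where both differences had one sign the smaller was kept. A gene is called higher or lower in EBC-CR2 below when that smaller difference was at least 2-fold, a log2 difference of 1. The parental library took no part in the choice and its levels are given for reference.

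EBC-1, the parent, is a squamous lung cancer line with extra copies of MET, the gene of a receptor tyrosine kinase that capmatinib inhibits. The capmatinib doses were raised in steps to 1.5 µmol/L for EBC-CR1, 2.2 µmol/L for EBC-CR2 and 2.4 µmol/L for EBC-CR3, and each of these lines was then held in 1 µmol/L for more than 2 months. Passages were 81 to 83 for EBC-CR2 as for EBC-CR3, 64 to 66 for EBC-CR1 and 35 to 37 for EBC-1. Each line is 1 culture with 1 library, so no difference below has a replicate check, no test was possible and no p-value is given. Separate selection of each line, clonality and the presence of drug at harvest are not stated in the labels. The file headers and the sample labels give opposite numbers to EBC-CR3 and EBC-CR1. The labels are followed here, and whether a gene was called does not depend on the choice, because EBC-CR2 was compared with both.

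Several gene programmes met in this comparison. TP63 encodes p63, the transcription factor that maintains stratified squamous epithelium, and with the grainyhead factors it governs adhesion, barrier genes and the microRNA miR-205. NRF2 is a transcription factor that KEAP1 marks for destruction, and when free it drives genes of glutathione, NADPH and aldo-keto reductase metabolism, a programme often active in squamous lung cancer. Interferon-stimulated genes are switched on through STAT and IRF factors that bind a response element with repeated GAAA letters. YAP, with its partner TEAD, drives genes of growth and matrix contact, and the cell cycle genes of mitosis and replication are held under E2F, the DREAM complex and p53.

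Each deposited library summed to 25.0 M units, and its lowest values gave estimated depths of 30.4 M reads for EBC-1, 21.6 for EBC-CR1, 21.3 for EBC-CR2 and 27.3 for EBC-CR3, with 9825 to 10272 symbols listed at 0. At these depths 3 reads correspond to log2 levels between 1.80 and 2.18, so levels near or below these are a few reads. Intervals given below are exact 95% counting intervals of a log2 ratio of estimated reads and cover counting error only. Folds are ratios of normalized units, and none is given against a gene listed at 0, which is not shown to be absent. Levels that follow the word against without names are those of EBC-CR1, EBC-CR3 and EBC-1, and 4 levels without names are those of EBC-1, EBC-CR1, EBC-CR2 and EBC-CR3, each in that order. The libraries were made from the 3′ ends of transcripts, so rows whose genes share a 3′ end cannot be told apart. The epithelial markers EPCAM, CDH1, KRT8 and KRT18 were at log2 levels of 10.41 or more in every library. Of the squamous markers, TP63 was detected in the resistant libraries, while KRT5, KRT14 and KRT6A were listed at 0 in all 4 libraries and DSG3 did not pass 0.81 in any. MET was at 15.62, 15.34, 15.47 and 15.52 in EBC-1, EBC-CR1, EBC-CR2 and EBC-CR3 and EGFR at 8.57, 10.57, 10.63 and 10.95, so neither receptor set EBC-CR2 apart.

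EBC-CR2 stood further from both other resistant lines than either of them did from the rest. In EBC-CR2, 1368 genes were at least 2-fold higher than in both others, which is 9.41% of the genes compared, and 1465 were lower, which is 10.1%, or 19.5% in either direction. The same count for EBC-CR1 was 539 higher and 582 lower (3.71% and 4%), and for EBC-CR3 it was 448 higher and 419 lower (3.08% and 2.88%). The 3 counts share libraries and are given as a description. At least 4-fold, EBC-CR2 had 461 genes higher (3.17%) and 448 lower (3.08%), 6.25% together, against 1.9% for EBC-CR1 and 2.14% for EBC-CR3. Both differences of EBC-CR2 had one sign for 77.0% of genes, while for EBC-CR1 and EBC-CR3 this held for 66.3% and 54.1%.

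**Figure D1:**
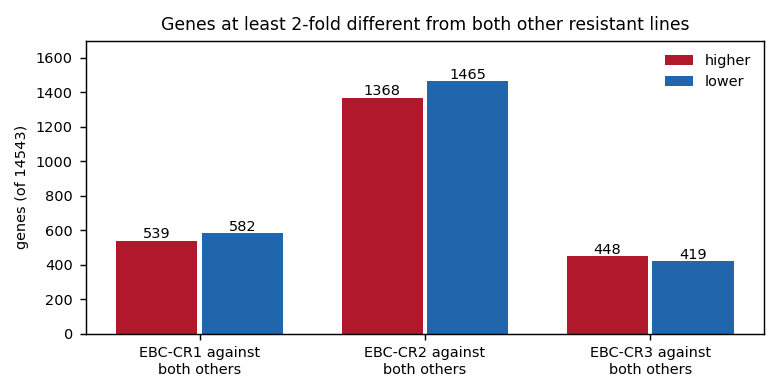
Number of genes (vertical axis, of 14543 compared) at least 2-fold higher (red) or lower (blue) in each resistant line than in both other resistant lines, with 1 library per line. EBC-CR2 has 1368 and 1465 genes, and the other 2 lines have between 419 and 582 in each direction.

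The typical size of the differences showed the same order. The median absolute log2 difference was 0.64 between EBC-CR2 and EBC-CR1, 0.56 between EBC-CR2 and EBC-CR3, and 0.39 between EBC-CR3 and EBC-CR1. The part of passage number and of final dose in these differences was not tested. The closest genes to the threshold were C20orf195 at a smaller difference of 1 and AGO3 at -1 inside it, and C3orf62 at 0.998 and METRNL at -0.999 outside. On the floor, 78 symbols sat at exactly 3.32 in their highest resistant library and were kept, and the next 150, at 3.29, were not. Transcripts past the floor in EBC-CR2 and listed at 0 in both others numbered 77, against 84 for EBC-CR3 and 47 for EBC-CR1. Those listed at 0 in EBC-CR2 and past the floor in both others numbered 82, against 22 for EBC-CR3 and 36 for EBC-CR1.

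The 15 genes furthest above both other lines were led by epithelial membrane genes and by enzymes that handle oxidants and xenobiotics. ADGRF4, an adhesion G protein-coupled receptor gene, was at 8.76 in EBC-CR2 but 0 in EBC-CR1, 0 in EBC-CR3 and 6.38 in EBC-1. GJB5, which encodes a connexin of squamous epithelium, was at 7.74 in EBC-CR2 and 7.22 in EBC-1 and was listed at 0 in both other resistant lines. Both genes thus sat in EBC-CR2 above their parental level and were not detected in the other resistant libraries. FXYD3, a regulator of the sodium pump, was the most abundant of the 15, at 14.89 in EBC-CR2, against 7.40 in EBC-CR1, 8.21 in EBC-CR3 and 9.85 in EBC-1, which is 181-fold and 103-fold higher than in EBC-CR1 and EBC-CR3. ANXA8, an annexin gene, was at 12.96 in EBC-CR2, against 4.86 in EBC-CR1, 6.06 in EBC-CR3 and 4.88 in EBC-1, and the row of its near-identical copy ANXA8L1 was at 12.08 against 3.46, 3.29 and 2.95. The sources used here do not say how reads were split between these copies.

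Some of the leading genes were low or listed at 0 in the parental line as well. CD36, a fatty acid and thrombospondin receptor gene, was at 7.0 in EBC-CR2 and listed at 0 in the other 3 libraries. CSTA, the gene of cystatin A, a protease inhibitor of the squamous cell envelope, was at 7.79 against 0.81 in EBC-CR3 and 0 in EBC-CR1 and EBC-1. WISP1, a matricellular protein gene, was at 6.56 and otherwise listed at 0. The growth factor receptor gene FGFR2 followed this pattern, at 7.24 in EBC-CR2, 0.81 in EBC-1 and 0 in the others. PTGES, the gene of an inducible prostaglandin E synthase, was at 12.95 in EBC-CR2, against 5.84 in EBC-CR1, 5.25 in EBC-CR3 and 2.86 in EBC-1, 141-fold and 214-fold higher. These 5 genes marked EBC-CR2 among all 4 lines, not only among the resistant ones. UGT1A6, a glucuronosyltransferase gene, was at 7.49 in EBC-CR2, 2.86 in EBC-1 and 0 in both others, and 8 further UGT1A rows, which share its last exons, had identical values to each other and add no evidence.

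**Figure D2:**
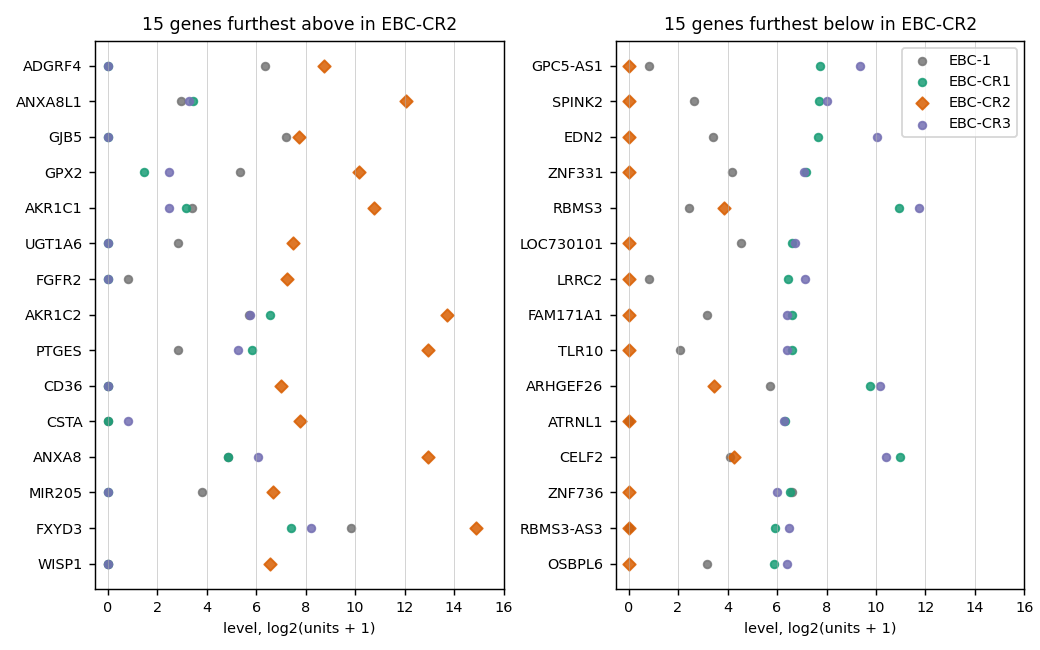
Log2(units + 1) levels (horizontal axis) of the 15 genes furthest above (left) and furthest below (right) both other resistant lines in EBC-CR2, with 1 point per library: grey EBC-1, green EBC-CR1, orange diamond EBC-CR2, violet EBC-CR3. Points at 0 lie on top of one another. EBC-CR2 lies right of the other 3 libraries in the left panel and left of both other resistant lines in the right panel, while EBC-CR1 and EBC-CR3 lie close together for most genes.

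The 15 genes furthest below were mostly listed at 0 in EBC-CR2 and well detected in both other resistant lines. RBMS3, the gene of an RNA-binding protein, was the most abundant of them, at 3.86 in EBC-CR2 but 10.93 in EBC-CR1, 11.75 in EBC-CR3 and 2.46 in EBC-1, so EBC-CR1 exceeded EBC-CR2 by 144-fold and EBC-CR3 by 255-fold. CELF2, a splicing regulator gene, was at 4.27 in EBC-CR2 but 10.98 in EBC-CR1, 10.40 in EBC-CR3 and 4.09 in EBC-1, and EBC-CR2 lay nearer to the parent than to the others at both genes. ARHGEF26, an exchange factor gene for the GTPase RhoG, was at 3.46 in EBC-CR2 but 9.78 in EBC-CR1, 10.15 in EBC-CR3 and 5.70 in EBC-1. EDN2, the endothelin 2 gene, was listed at 0 in EBC-CR2 and was at 7.67 in EBC-CR1, 10.03 in EBC-CR3 and 3.39 in EBC-1. SPINK2, a protease inhibitor gene, stood at 7.71 and 8.02 in the other resistant lines, 2.64 in EBC-1 and 0 in EBC-CR2. The toll-like receptor gene TLR10 had 6.61, 6.39, 2.09 and 0 in the same order.

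For these genes the parent was also below both other resistant lines, other than for the zinc finger gene ZNF736. Its levels in EBC-1, EBC-CR1 and EBC-CR3 were 6.59, 6.53 and 6.01, and it was listed at 0 in EBC-CR2 alone. ZNF331, another zinc finger gene, was listed at 0 in EBC-CR2 and was at 7.19 in EBC-CR1, 7.10 in EBC-CR3 and 4.17 in EBC-1. The remaining rows were GPC5-AS1, LOC730101, LRRC2, FAM171A1, ATRNL1, OSBPL6 and RBMS3-AS3, each listed at 0 in EBC-CR2 and between 5.88 and 9.35 in both other lines. GPC5-AS1 and RBMS3-AS3 are antisense transcripts, and the sources used here do not say how the counting used strand.

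Gene groups were described by 47 lists of known members, by counting how many of the members past the floor were called. A member could pass the floor in EBC-CR2 alone, and such a member was counted only because it was high there. The shares over all genes used the same floor. NRF2 target genes were higher as a group: 15 of 27 members past the floor were called higher and 0 lower, or 55.6% against 9.41% of all genes. Their median differences were 1.18 against EBC-CR1 and 1.44 against EBC-CR3, and 24 of the 27 lay above both other lines, against 38.1% of all genes. GPX2, a glutathione peroxidase gene of epithelia, was at 10.16 in EBC-CR2, against 1.46 in EBC-CR1, 2.46 in EBC-CR3 and 5.37 in EBC-1. Its log2 ratio had a counting interval of 7.09 to 12 over EBC-CR1 and 6.74 to 9.60 over EBC-CR3, and both other libraries held only a few reads. AKR1C2, an aldo-keto reductase gene of steroid and carbonyl metabolism, was at 13.72 in EBC-CR2, against 6.57 in EBC-CR1, 5.77 in EBC-CR3 and 5.70 in EBC-1, 143-fold and 252-fold higher. AKR1C1 was at 10.78 against 3.17, 2.46 and 3.39, and AKR1C3 at 11.73 against 8.91, 8.28 and 9.51. The copies AKR1C1 and AKR1C2 are close in sequence, and how reads fell between them is uncertain. AKR1C1, AKR1C2 and AKR1C3 all lie on chromosome 10, so they are not independent.

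PGD, an NADPH-producing enzyme of the pentose phosphate pathway, was at 12.03 in EBC-CR2, against 10.45 in EBC-CR1, 10.22 in EBC-CR3 and 11.28 in EBC-1. TKT and TALDO1, which recycle the pathway's sugars, had smaller differences of 1.52 and 1.47. NQO1, a quinone reductase gene and a standard marker of NRF2 activity, was at 15.65 in EBC-CR2 against 14.11 in EBC-CR1, 13.59 in EBC-CR3 and 14.79 in EBC-1. SLC7A11, the cystine importer gene, had a smaller difference of 1.31 and AKR1B10 one of 2.40. Other classic targets were not called: HMOX1 had a smaller difference of 0.46, GCLM of 0.46 and GCLC of 0.97, and TXNRD1, SRXN1 and ME1 lay between the other lines. NFE2L2, the NRF2 gene, was at 9.66, 10.75, 11.23 and 10.63 in EBC-1, EBC-CR1, EBC-CR2 and EBC-CR3, and KEAP1 at 10.55, 11.05, 10.25 and 10.62. The promoter sequence of GPX2, the leading member, is shown because the antioxidant response element core TGACNNNGC occurs in it.

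GPX2 (chr14:64942746-64942895, - strand): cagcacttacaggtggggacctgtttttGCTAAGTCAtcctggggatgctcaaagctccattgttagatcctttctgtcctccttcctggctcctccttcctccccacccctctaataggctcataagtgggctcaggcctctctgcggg

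These are the 150 bases before the start of the gene, 5′ to 3′ on the gene's strand, from RefSeq on GRCh38.p14, with the match in capitals, here on the opposite strand. The core was chosen after values were seen, and it occurs in 13.6% of all 27305 promoters of 300 bases (250 before the start and 50 after, both strands). It was no more common in EBC-CR2 calls, at 13.7% for genes called higher, 13.7% for genes called lower and 14.8% over the genes compared. Of the 27 list members 18 had a promoter, too few to read a share from.

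Other detoxification genes were counted with their own lists. The share called higher was 31.2% for aldehyde dehydrogenases and 33.3% for ABC transporters, against 9.41% of all genes. Among aldehyde dehydrogenases, 5 of 16 measured members were higher and 0 lower, with ALDH3A2, a fatty aldehyde enzyme, at 11.84 in EBC-CR2, against 9.77 in EBC-CR1, 9.41 in EBC-CR3 and 10.47 in EBC-1, and ALDH1A3, a retinoic acid enzyme, at 13.91 against 12.10, 12.34 and 9.58. The medians of the list were 0.24 against EBC-CR1 and 0.02 against EBC-CR3, with 7 members above and 4 below both other lines. Among ABC transporters 6 of 18 were higher and 0 lower, led by ABCA12, a lipid transporter of the skin barrier, at 6.27 in EBC-CR2, against 1.46 in EBC-CR1, 1.81 in EBC-CR3 and 1.46 in EBC-1. ABCG1, a cholesterol exporter, was at 9.59 against 6.29, 7.23 and 5.58. ABCG2, a drug exporter, was at 4.97 in EBC-CR2, 3.61 in EBC-CR1 and 0 in EBC-CR3, with 5.09 in EBC-1, and its log2 ratio over EBC-CR1 had a counting interval of 0.30 to 2.62.

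Transcription factors of squamous epithelium were higher in EBC-CR2: 7 of 15 measured factors were called higher and 0 lower, or 46.7% higher against 9.41% of all genes. The medians were 1.12 against EBC-CR1 and 0.87 against EBC-CR3. TP63 stood at 11.32 in EBC-CR2, against 6.65 in EBC-CR1, 8.43 in EBC-CR3 and a listed 0 in EBC-1, a 25.6-fold and 7.42-fold difference with counting intervals of 4.37 to 5.01 and 2.73 to 3.05. TP63 transcripts were therefore present in every resistant line and differed in amount. TFAP2A was at 12.10 against 10.45, 10.58 and 9.65, and ELF3, a factor of epithelial differentiation, at 12.69 against 10.98, 11.25 and 9.22. The grainyhead factors GRHL1 and GRHL2 had smaller differences of 1.58 and 1.09, and PITX1 one of 1.12. SOX2 did not follow TP63: it was at 9.25 in EBC-CR2 but 9.33 in EBC-CR1, 10.85 in EBC-CR3 and 6.45 in EBC-1. KLF4 and PAX9 also did not, with smaller differences of -0.02 and -0.52.

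The microRNA host transcript MIR205HG was at 14.48 in EBC-CR2, against 5.29 in EBC-CR1, 9.01 in EBC-CR3 and 7.89 in EBC-1, and the row of MIR205, which lies in it, at 6.69 in EBC-CR2, 3.81 in EBC-1 and 0 in both others. The libraries were primed on poly(A) tails, so these rows report the host transcript and mature miR-205 was not measured. The mature sequence of the main arm is printed because its seed, bases 2 to 8 and in capitals, is what defines its targets.

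hsa-miR-205-5p (chr1:209432166-209432187, + strand, RefSeq, GRCh38.p14): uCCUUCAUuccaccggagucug

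ZEB1 and ZEB2 are repressors of epithelial genes and known targets of this microRNA. ZEB1 was at 2.91 in EBC-CR2, against 2.95 in EBC-CR1, 5.46 in EBC-CR3 and 5.43 in EBC-1, and ZEB2 at 1.46 against 2.70, 4.09 and 2.46. For ZEB1 EBC-CR2 and EBC-CR1 were nearly equal, although EBC-CR1 had the lowest MIR205HG level of the 4 libraries. ZEB2 was lowest in EBC-CR2. There 3 reads give a level of 2.18, so its values for both genes rest on a few reads. A link between miR-205 and these levels was not tested. MIR205HG lies in 1 of the chromosomal stretches described further on.

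Keratins did not show a complete basal programme. Of 9 basal and stress keratins, 3 passed the floor and were called higher, KRT15 at 7.87 in EBC-CR2, against 5.88 in EBC-CR1, 5.25 in EBC-CR3 and 6.43 in EBC-1, KRT16 at 5.98 against 4.86, 3.83 and 0, and KRT17 at 6.22 against 3.61, 0 and 0. KRT6B, KRT6C and KRT75 were listed at 0 in all 4 libraries, as were KRT5, KRT14 and KRT6A. Of 8 simple and other keratins past the floor, 0 were called, and the simple keratin KRT7 was at 12.03, 12.80, 12.73 and 13.09 in EBC-1, EBC-CR1, EBC-CR2 and EBC-CR3. Over all genes 9.41% were called higher and 10.1% lower. The 3 measured basal and stress keratins are too few to read a share from. EBC-CR2 thus carried more TP63 RNA than the other lines without detected KRT5 or KRT14.

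S100 genes, which encode small calcium-binding proteins, had the largest share called higher of the lists with 10 or more measured members, 9 of 12 with 0 lower. That share is 75%, against 9.41% of all genes. S100A9, one subunit of calprotectin, was at 13.44 in EBC-CR2, against 8.13 in EBC-CR1, 7.25 in EBC-CR3 and 4.09 in EBC-1, 39.7-fold and 73.5-fold higher. S100A8, the other subunit, was at 7.38 against 2.0 in EBC-CR1 and 0 in EBC-CR3 and EBC-1. S100A2, a p63 target of basal cells, was at 11.10 in EBC-CR2, against 8.08 in EBC-CR1, 8.08 in EBC-CR3 and 9.68 in EBC-1, with EBC-CR1 and EBC-CR3 equal to 2 decimals. S100A6 and S100A10 had smaller differences of 2.09 and 1.70, and S100A4, a gene of motile cells, lay between the other lines. The 10 members that were placed in chromosome order lie on 1 chromosome, so they are not independent.

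Of 13 measured genes of the cornified envelope and its proteases, 8 were called higher and 1 lower. These are 61.5% and 7.69%, against 9.41% and 10.1% of all genes. KLK6, KLK8 and KLK10 among them lie on chromosome 19, so they are not independent. SPRR1B was near the floor, at 3.61 in EBC-CR2, 2.0 in EBC-CR1 and 0 in EBC-CR3. Kallikreins led this group after CSTA: KLK10 was at 11.81 in EBC-CR2, against 8.02 in EBC-CR1, 8.53 in EBC-CR3 and 10.47 in EBC-1, KLK8 at 8.32 against 4.44, 4.73 and 6.23, and KLK6 at 9.12 against 6.79, 6.81 and 10.05. The small proline-rich gene SPRR1A was at 6.92 against 4.44, 2.46 and 5.09. The member called lower was KRTDAP, listed at 0 in EBC-CR2 and at 3.61 and 2.09 in the others. FLG, LOR and SPRR3 were listed at 0 in all 4 libraries, and IVL was listed at 0 in the 3 resistant ones, while CDSN and CNFN, further genes of the list, were detected at 5.66 and 7.01 in EBC-CR2 and were not called. For KLK6 and KLK7 the parental level, 10.05 and 6.25, was above that of EBC-CR2.

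Secretory and mucin genes were also higher, with 7 of 10 measured members called and 0 lower, of 29 listed. This is 70% of those measured, against 9.41% of all genes. AGR2, a chaperone of mucin-making cells, was at 10.80 in EBC-CR2, against 8.07 in EBC-CR1, 8.27 in EBC-CR3 and 10.61 in EBC-1. MUC4, a membrane mucin gene, was at 10.75 against 7.44, 9.15 and 9.59, and MUC1 and MUC20 had smaller differences of 1.41 and 1.49. NKX2-1, the lineage factor of lung adenocarcinoma, was not among them, at 3.61 in EBC-CR2 but 3.88 in EBC-CR1, 6.08 in EBC-CR3 and 1.91 in EBC-1.

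Of 23 measured integrin, laminin and basement membrane genes, 8 were higher and 3 lower. These are 34.8% and 13%, against 9.41% and 10.1% of all genes. ITGB4, the beta 4 integrin of the hemidesmosome, which anchors basal epithelial cells to laminin, was at 12.75 in EBC-CR2, against 9.37 in EBC-CR1, 9.75 in EBC-CR3 and 11.62 in EBC-1, with counting intervals of 3.25 to 3.50 and 2.89 to 3.09. COL17A1, its transmembrane collagen partner, was at 7.35 against 2.95, 4.54 and 9.01, COL7A1, the collagen of anchoring fibrils, at 8.15 against 5.29, 5.21 and 6.20, and LAMA3, a chain of laminin 332, at 9.61 against 7.02, 6.04 and 10.71. EBC-CR2 was above the parent for ITGB4 and COL7A1 and between the parent and the other lines for COL17A1 and LAMA3. LAMB3, another laminin chain, did not follow, with a smaller difference of 0.10. The 3 called lower were ITGB5 (-1.28), COL4A2 (-2.01) and LAMA4 (-2.33).

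Interferon-stimulated genes were higher in EBC-CR2, 16 of 39 measured members against 1 lower, or 41% against 9.41% of all genes, with medians of 1.17 against EBC-CR1 and 1.06 against EBC-CR3. In all, 34 of the 39 lay above both other lines. TRIM22, an antiviral ubiquitin ligase gene, was at 8.13 in EBC-CR2, against 1.46 in EBC-CR1, 2.46 in EBC-CR3 and 3.17 in EBC-1, and RSAD2, which encodes viperin, at 5.91 against 0.58, 0 and 2.46. CMPK2, the neighbour of RSAD2, was at 5.37 against 1.46, 0 and 4.58. BST2, the tetherin gene, was at 6.75 against 3.75, 3.09 and 2.64, 8.52-fold and 14.2-fold higher. These levels are low, and the leading differences rest on few reads in the other libraries: the counting interval of the log2 ratio for TRIM22 was 5.04 to 9.96 over EBC-CR1 and 4.69 to 7.56 over EBC-CR3. Among the resistant libraries TRIM22, RSAD2, CMPK2, OAS2 and XAF1 passed the floor in EBC-CR2 alone. Their calls are therefore no separate evidence for the group.

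The oligoadenylate synthetase genes OAS1 and OAS2, sensors of double-stranded RNA, had smaller differences of 1.91 and 2.56, while OAS3 lay between the other lines. The tetratricopeptide genes IFIT1, IFIT2 and IFIT3 had 1.42, 1.67 and 1.94. Abundant members differed less: ISG15, a ubiquitin-like modifier, had a smaller difference of 0.86 and IFI6 of 0.82, and STAT2 was at 10.40 in EBC-CR2 but 8.75 in EBC-CR1, 9.46 in EBC-CR3 and 8.50 in EBC-1. IFITM2 was the member called lower, at 3.61 in EBC-CR2 but 5.48 in EBC-CR1, 5.62 in EBC-CR3 and 0 in EBC-1. Against the parent the list was not uniformly high in EBC-CR2: XAF1 was at 8.58 in EBC-1, 3.61 in EBC-CR2 and 0 in both others, and MX1 at 6.76, 5.88, 4.60 and 3.61 in EBC-1, EBC-CR2, EBC-CR1 and EBC-CR3. The promoters of 3 called members are printed because each holds the interferon response element, searched as GAAA, any 2 bases and GAAA again, in capitals.

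BST2 (chr19:17405631-17405780, - strand): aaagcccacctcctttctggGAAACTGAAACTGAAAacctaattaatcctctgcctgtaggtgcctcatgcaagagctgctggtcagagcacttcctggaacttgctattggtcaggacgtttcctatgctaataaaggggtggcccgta

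IFIT3 (chr10:89327847-89327996, + strand): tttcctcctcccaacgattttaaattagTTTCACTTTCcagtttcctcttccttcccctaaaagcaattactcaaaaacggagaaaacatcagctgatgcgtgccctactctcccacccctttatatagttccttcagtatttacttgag

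SAMD9 (chr7:93117980-93118129, - strand): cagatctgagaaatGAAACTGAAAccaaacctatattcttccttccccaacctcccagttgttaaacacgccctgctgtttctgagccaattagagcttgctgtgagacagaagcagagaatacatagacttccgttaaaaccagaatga

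Each is the 150 bases before the start, 5′ to 3′ on the gene's strand, from RefSeq on GRCh38.p14. Matches on either strand are marked, and in BST2 a pair of matches overlap. The element occurs in 3.65% of all promoters of 300 bases and in 4.55% of those of genes called higher in EBC-CR2, against 2.02% for genes called lower and 2.86% over the genes compared. Of the list, 31 of 39 members had a promoter and 19 held the element, and with under 80% of members matched the share for the list is not read. A match describes the letters and does not show binding.

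Genes that answer interferon gamma had calls in both directions, with 4 of 19 measured members higher and 3 lower, where 9.41% and 10.1% of all genes were called. The apolipoprotein L genes APOL1, APOL3 and APOL6 were higher, APOL1 at 11.86 in EBC-CR2, against 9.22 in EBC-CR1, 10.35 in EBC-CR3 and 9.79 in EBC-1, while the adhesion gene ICAM1 was lower, at 6.15 in EBC-CR2 but 7.93 in EBC-CR1, 7.99 in EBC-CR3 and 0 in EBC-1. MHC class II genes had 4 of 13 higher and 0 lower, and 12 of the 13 lay above both other lines, as did 38.1% of all genes. CIITA, their master regulator, was at 9.64 in EBC-CR2, against 7.92 in EBC-CR1, 7.23 in EBC-CR3 and 7.34 in EBC-1, and CD74, the invariant chain gene, was 2.79-fold and 2.97-fold higher. MHC class I and peptide loading genes had 3 of 18 higher, or 16.7% against 9.41% of all genes, and 0 lower, with 16 above both and medians of 0.79 against EBC-CR1 and 0.57 against EBC-CR3. Among them B2M, the shared light chain, had a smaller difference of 0.83, and ERAP2, a peptide trimming enzyme, was called at 1.18. The HLA genes are close copies of one another, which leaves their individual levels uncertain.

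Leukocyte markers were examined beside these immune groups. Of 18 markers, 2 passed the floor, ITGB2 at 6.82 in EBC-CR2 but 9.23 in EBC-CR1, 9.18 in EBC-CR3 and 3.39 in EBC-1 and CD68 at 10.91 in EBC-CR2 but 8.48 in EBC-CR1, 9.20 in EBC-CR3 and 8.91 in EBC-1, and they pointed in opposite directions. PTPRC, CD3D and FCER1G were listed at 0 in EBC-CR2, and CD3E, CD79A, TYROBP, AIF1 and SPI1 were listed at 0 in all 4 libraries. The summed level of the 18 markers was 8.97, 9.94, 11 and 10.20 on the log2 scale in EBC-1, EBC-CR1, EBC-CR2 and EBC-CR3. CD68 and ITGB2 make up most of this sum in every library, so it reports those 2 genes and not the other markers. Of 14 markers of fibroblasts and endothelium, 1 passed the floor, COL1A1 at 5.37, 6.64, 6.43 and 7.25. Red cell transcripts were found in EBC-CR1, where HBB was at 13.90 against 0 in the other libraries, and ALAS2 was at 4.86 in EBC-CR1 and 4.85 in EBC-CR2. The haemoglobin genes were not called, since EBC-CR2 and EBC-CR3 were both listed at 0 for them. The part of other cells in the immune results was not tested.

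Acute phase and antimicrobial genes had 9 of 18 measured members higher and 1 lower, or 50% and 5.56% against 9.41% and 10.1% of all genes. SAA1, serum amyloid A, was at 14.61 in EBC-CR2, against 12.58 in EBC-CR1, 13.10 in EBC-CR3 and 2.46 in EBC-1, and the row of its near-identical copy SAA2 had a smaller difference of 1.16. The complement protease genes C1S and C1R, which are neighbours, were at 11.68 and 11.18 in EBC-CR2, 8.67 and 7.91 in EBC-CR1, and 9.78 and 9.86 in EBC-CR3. LCN2 and SLPI, secreted antimicrobial proteins, had smaller differences of 1.13 and 1.18. DEFB4A, a beta defensin gene, went the other way, at 5.15 in EBC-CR2 but 9.02 in EBC-CR1, 7.54 in EBC-CR3 and 0 in EBC-1. The inflammatory targets of NF-kB, 3 of 32 higher and 4 lower, were close to the shares over all genes. Single members differed strongly in both directions, with the chemokine gene CCL2 at 4.36 in EBC-CR2 but 9.44 in EBC-CR1, 9.46 in EBC-CR3 and 0 in EBC-1 and the cytokine gene IL1B at 8.90 in EBC-CR2 but 5.98 in EBC-CR1, 4.63 in EBC-CR3 and 4.25 in EBC-1. LTB, the lymphotoxin beta gene, was 7.75-fold and 10.2-fold higher in EBC-CR1 and EBC-CR3 than in EBC-CR2.

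**Figure D3:**
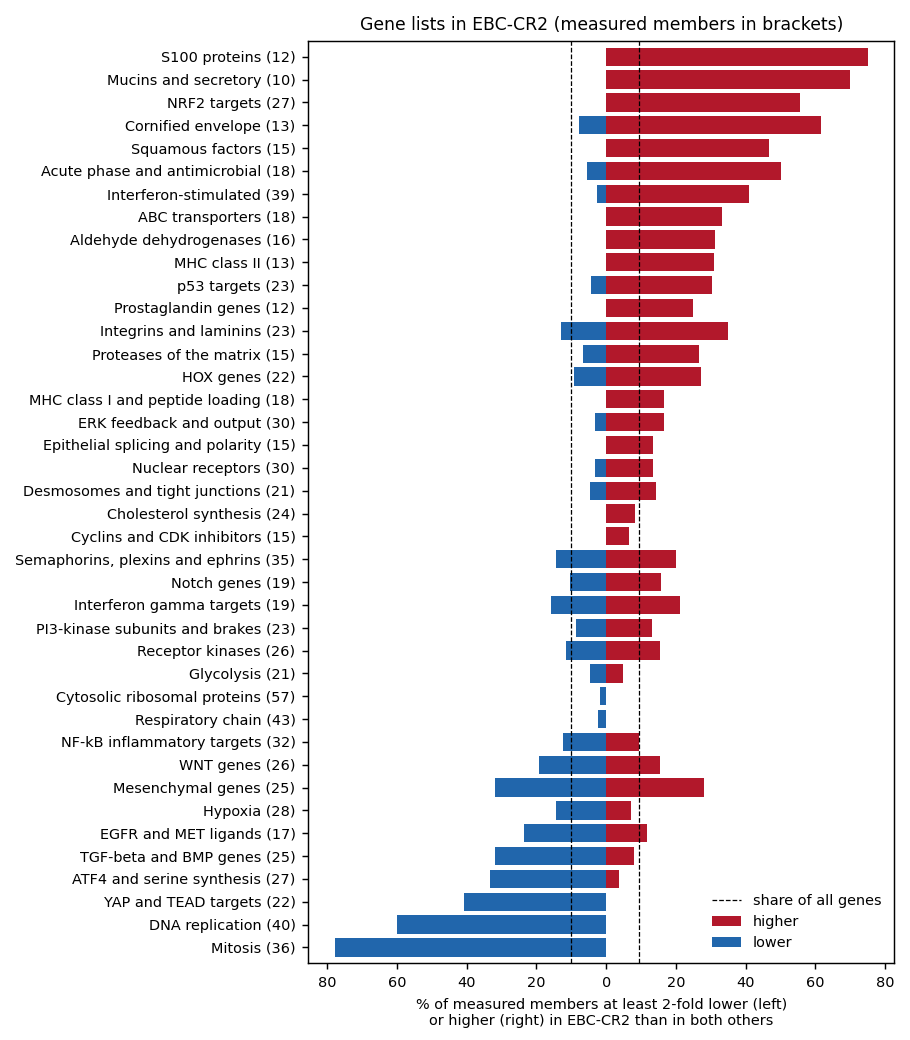
Share of measured members of each list with 10 or more of them (horizontal axis, percent; bracketed numbers give the measured members) at least 2-fold higher (red, right) or lower (blue, left) in EBC-CR2 than in both other resistant lines. Dashed lines mark the shares over all genes, 9.41% and 10.1%. The S100, mucin, cornified envelope, NRF2 and acute phase lists reach furthest to the right, and mitosis, DNA replication and YAP targets furthest to the left.

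Cell cycle genes were lower in EBC-CR2 than in both other resistant lines. Of 36 mitosis genes, 28 were called lower and 0 higher, or 77.8% against 10.1% of all genes, and all 36 lay below both other resistant lines, with medians of -1.63 against EBC-CR1 and -1.43 against EBC-CR3. CDK1, the kinase that starts mitosis, was at 10.37 in EBC-CR2 but 12.59 in EBC-CR1, 12.27 in EBC-CR3 and 12.35 in EBC-1. EBC-CR1 thus held 4.68-fold and EBC-CR3 3.75-fold as much, with counting intervals of the log2 ratio of -2.32 to -2.13 and -2.0 to -1.81. TOP2A, the topoisomerase of dividing cells, was at 14.04, 13.44, 11.69 and 13.65, MKI67, the proliferation marker Ki-67, at 11.84, 11.22, 9.69 and 11.72, and PLK1, a mitotic kinase, at 9.80, 9.60, 8.01 and 9.90 in EBC-1, EBC-CR1, EBC-CR2 and EBC-CR3. FOXM1, the factor that drives these genes, was at 13.89, 12.46, 10.91 and 13.01. For each of these genes EBC-CR2 was the lowest of the 4 libraries. The member nearest to the others was PTTG1, the securin gene, at -0.41, and MAD2L1 just missed the threshold at -0.998.

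DNA replication genes showed the same direction, 24 of 40 lower and 0 higher, or 60% lower against 10.1% of all genes. Of these genes 38 lay below both other lines, with medians of -1.66 against EBC-CR1 and -1.22 against EBC-CR3. GINS2, a subunit of the replicative helicase, was at 7.40 in EBC-CR2 but 9.95 in EBC-CR1, 9.61 in EBC-CR3 and 10.28 in EBC-1, and CDT1, which loads the helicase, had a smaller difference of -1.92. The helicase subunits MCM2, MCM3, MCM5, MCM6 and MCM7 were each called lower, with smaller differences from -1.74 for MCM3 to -1.19 for MCM7, and MCM4 had -0.92. E2F1 and E2F2, factors that switch these genes on, had -1.57 and -1.70. PCNA, TYMS and CCNE2, with -0.24, -0.46 and -0.25, were not called, and RRM1 and GINS1 lay between the other lines. In a bulk library a smaller share of dividing cells and less of these transcripts per cell cannot be told apart. The cytosolic ribosomal proteins, 0 of 57 higher and 1 lower, and the respiratory chain, 0 of 43 higher and 1 lower, were by comparison nearly free of calls.

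Mitosis promoters are shown because these members lay together and many of their promoters share 1 element, the cell cycle homology region, searched as TTTGAA on both strands and printed in capitals. KIF23 and PRC1 act in the midzone of the dividing cell.

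KIF23 (chr15:69414199-69414348, + strand): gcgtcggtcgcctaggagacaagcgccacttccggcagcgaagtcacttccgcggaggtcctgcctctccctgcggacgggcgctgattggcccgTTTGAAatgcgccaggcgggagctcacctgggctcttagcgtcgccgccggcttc

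PRC1 (chr15:90994536-90994685, - strand): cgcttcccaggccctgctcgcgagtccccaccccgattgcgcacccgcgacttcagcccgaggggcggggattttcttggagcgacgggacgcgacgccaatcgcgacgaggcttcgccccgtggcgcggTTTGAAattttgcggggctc

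PLK1 (chr16:23678739-23678888, + strand): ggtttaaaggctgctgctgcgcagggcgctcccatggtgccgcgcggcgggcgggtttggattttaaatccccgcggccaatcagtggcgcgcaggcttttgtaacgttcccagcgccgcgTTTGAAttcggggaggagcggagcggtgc

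Each is again the 150 bases before the start from RefSeq on GRCh38.p14. Of 29 mitosis members with a promoter of 300 bases, out of 36, 20 held the letters, or 69%, against 15.4% of all 27305 promoters and 9.88% of the compared genes with a promoter. Over all genes called lower in EBC-CR2 the share was 16.1%, and over those called higher 8.4%. Only 1 of 34 replication promoters held them. The motif was chosen after values were seen, and the share describes the list and is no evidence on any factor.

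Of 23 measured p53 targets, 7 were called higher and 1 lower, or 30.4% and 4.35% against 9.41% and 10.1% of all genes. GDF15, a stress cytokine gene, was at 15.31 in EBC-CR2, against 11.64 in EBC-CR1, 12.31 in EBC-CR3 and 8.52 in EBC-1, 12.7-fold and 8.01-fold higher. PHLDA3, an inhibitor of AKT, was at 11.06 against 6.78, 8.10 and 9.70, and CDKN1A, the p21 inhibitor of cyclin-dependent kinases, at 13.59 against 12.21, 11.42 and 11.89. TP53INP1 and SESN1 had smaller differences of 2.23 and 1.65, and MDM2 lay just under the threshold at 0.98. BBC3 and FAS, genes of cell death, were not called, at -0.58 and -0.90, and CCNG1 was called lower at -1.23. Of 15 cyclins and inhibitors 1 was called, CDKN1A.

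**Figure D4:**
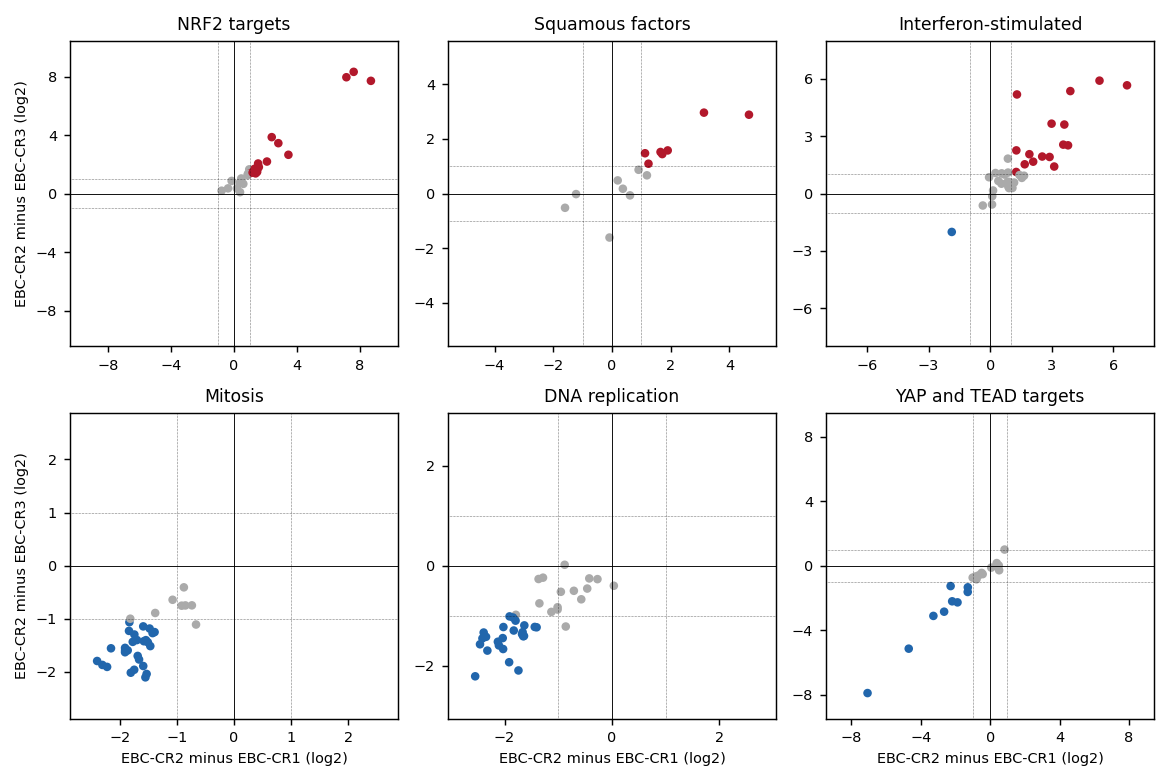
Log2 difference of EBC-CR2 from EBC-CR1 (horizontal) and from EBC-CR3 (vertical) for each measured member of 6 lists, with red points at least 2-fold higher, blue at least 2-fold lower and grey neither, dotted lines at a log2 difference of 1 either way, and a scale of its own for each panel. Points lie near the rising diagonal, and the mitosis and replication members lie in the lower left. Both axes use the EBC-CR2 library, so their likeness is not independent.

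Targets of YAP and TEAD were lower in EBC-CR2 than in both other resistant lines, 9 of 22 measured members with 0 higher. This is 40.9% lower against 10.1% of all genes, with medians of -0.82 against EBC-CR1 and -0.73 against EBC-CR3. ANKRD1, a sensitive YAP target, was at 7.67 in EBC-CR2 but 12.37 in EBC-CR1, 12.81 in EBC-CR3 and 5.12 in EBC-1, so EBC-CR1 exceeded EBC-CR2 by 26-fold and EBC-CR3 by 35.5-fold. CYR61, a secreted matrix protein gene, was at 11.89 in EBC-CR2 but 15.17 in EBC-CR1, 15.01 in EBC-CR3 and 11.95 in EBC-1, and CTGF, its relative, had a smaller difference of -1.29. TGFB2, a TGF-beta ligand gene, was at 9.83, 14.18, 11.53 and 14.38 in EBC-1, EBC-CR1, EBC-CR2 and EBC-CR3. For CYR61 EBC-CR2 was close to the parent, and for ANKRD1 and TGFB2 it lay between the parent and the other lines. Targets without a call included LATS2 (-0.60), AJUBA (-0.43) and PTPN14 (0.01), and the YAP1 gene was at 12.31, 13.18, 12.85 and 12.65.

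The TGF-beta and BMP list leaned the same way, 8 of 25 lower and 2 higher. These are 32% and 8%, against 10.1% and 9.41% of all genes. INHBA, the activin A subunit gene, was at 9.03 in EBC-CR2 but 13.38 in EBC-CR1, 13.43 in EBC-CR3 and 6.12 in EBC-1, 20.4-fold and 21.3-fold higher in EBC-CR1 and EBC-CR3 than in EBC-CR2. TGFBR3, a co-receptor gene, was at 0, 6.72, 3.86 and 7.14, and ID2, a target of BMP signals, at 4.04, 5.84, 2.70 and 5.51 in EBC-1, EBC-CR1, EBC-CR2 and EBC-CR3. Mesenchymal genes split, with 7 of 25 higher and 8 lower, or 28% and 32%. VIM, the vimentin gene, was at 4.17 in EBC-CR2 but 8.53 in EBC-CR1, 9.29 in EBC-CR3 and 10.91 in EBC-1, and SNAI1, a repressor of epithelial genes, at 3.95 in EBC-CR2 but 8.09 in EBC-CR1, 7.35 in EBC-CR3 and 5.29 in EBC-1. Members called higher included FN1, fibronectin, at 13.04 in EBC-CR2 but 11.74 in EBC-CR1, 11.25 in EBC-CR3 and 9.66 in EBC-1, and COL6A1 with a smaller difference of 1.56. ACTA2, smooth muscle actin, was also higher, at 9.34 against 5.98, 5.77 and 5.27. The fibroblast and endothelial markers DCN, LUM, FAP, CDH5, KDR and CLDN5 were listed at 0 in all 4 libraries. CDH1, the E-cadherin gene, was at 13.47 to 14.47 in the 4 libraries and was not called.

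Serine synthesis and other ATF4 targets were lower, 9 of 27 against 1 higher, and 20 lay below both other lines. Called lower were 33.3% and higher 3.7%, against 10.1% and 9.41% of all genes. PHGDH, the first enzyme of serine synthesis, was at 2.91 in EBC-CR2 but 7.44 in EBC-CR1, 7.87 in EBC-CR3 and 8.35 in EBC-1, with counting intervals of the log2 ratio of -6.08 to -3.46 and -6.50 to -3.90. PSAT1, the next enzyme, was at 10.55, 11.70, 8.69 and 10.54, and the last, PSPH, was not lower at 0.40. ASNS, asparagine synthetase, was at 9.88 in EBC-CR2 but 12.69 in EBC-CR1, 12.51 in EBC-CR3 and 12.36 in EBC-1, and PYCR1, of proline synthesis, at 11.88, 12.81, 9.89 and 12.26. All 4 of PHGDH, PSAT1, ASNS and PYCR1 also lay below the parent in EBC-CR2. ATF4 itself had a smaller difference of -0.59. The member called higher was SLC7A11, which the NRF2 list also holds.

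Receptor and signalling lists had calls in both directions, and single genes differed widely. Over all genes compared 9.41% were called higher and 10.1% lower. The shares were 15.4% and 11.5% for receptor kinases, 16.7% and 3.33% for ERK outputs, and 22.2% and 44.4% for clade B serpins. Of 26 measured receptor kinases 4 were higher and 3 lower: FGFR2 was higher as given above, and FGFR1 was at 9.04 in EBC-CR2 but 10.99 in EBC-CR1, 11.43 in EBC-CR3 and 9.66 in EBC-1, so the pair of receptors lay in opposite directions. ERBB4 was listed at 0 in EBC-CR2 and was at 4.27 in EBC-CR1 and 5.25 in EBC-CR3. Among ERK pathway outputs 5 of 30 were higher and 1 lower, with the phosphatase gene DUSP4 at 12.34 in EBC-CR2, against 11.03 in EBC-CR1, 9.76 in EBC-CR3 and 9.79 in EBC-1 and ETV4, a factor downstream of growth factor receptors, at 6.98 in EBC-CR2 but 8.27 in EBC-CR1, 8.71 in EBC-CR3 and 11.11 in EBC-1. LFNG, a glycosyltransferase that tunes Notch receptors, was at 13.47 in EBC-CR2, against 8.58 in EBC-CR1, 9.28 in EBC-CR3 and 11.43 in EBC-1, 29.7-fold and 18.3-fold higher. PIK3R3, a regulatory subunit of PI3-kinase, was at 12.08 against 9.51, 8.58 and 11.07. PLAT, the tissue plasminogen activator gene, was at 11.63 in EBC-CR2, against 5.33 in EBC-CR1, 5.33 in EBC-CR3 and 2.86 in EBC-1, 80.6-fold higher than in each of the others. Clade B serpins had 2 of 9 higher and 4 lower, and the squamous antigen genes SERPINB3 and SERPINB4, near-identical copies, were at 2.39 and 3.29 in EBC-CR2 against 6.56 and 8.28 in EBC-CR1. SYT1, a synaptic vesicle gene, was at 3.86 in EBC-CR2 but 9.47 in EBC-CR1, 8.52 in EBC-CR3 and 9.45 in EBC-1.

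Differences in EBC-CR2 were also shared by neighbours along chromosomes. The 10682 genes at 100 units or more that could be placed were put in the order of RefSeq on GRCh38.p14, and medians were taken over runs of 31 neighbours. The submitters' build is hg19, so the table was used for neighbours and no coordinates are given. In EBC-CR2, 7.86% of 9992 runs had both medians past 0.5 in one direction, 325 above and 460 below, and these joined into 24 stretches with 1664 genes, 15.6% of those placed. For EBC-CR1 against both others the runs made 1 stretch of 39 genes, and for EBC-CR3 there were 0. The medians over runs ranged from -1.33 to 1.32 for EBC-CR2 against EBC-CR1 and from -1.35 to 1.05 against EBC-CR3, but from -0.57 to 0.43 for EBC-CR3 against EBC-CR1. Among the 24 stretches, 1 on chromosome 5 from UBE2D2 to PCDHGA7 counts 45 rows. It holds protocadherin rows that share 3′ ends and so are not separate genes in effect. The maxima of 1.32 and 0.43 come from its runs. The stretches were chosen by these medians, so the values below describe them and do not test them, and DNA was not measured.

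**Figure D5:**
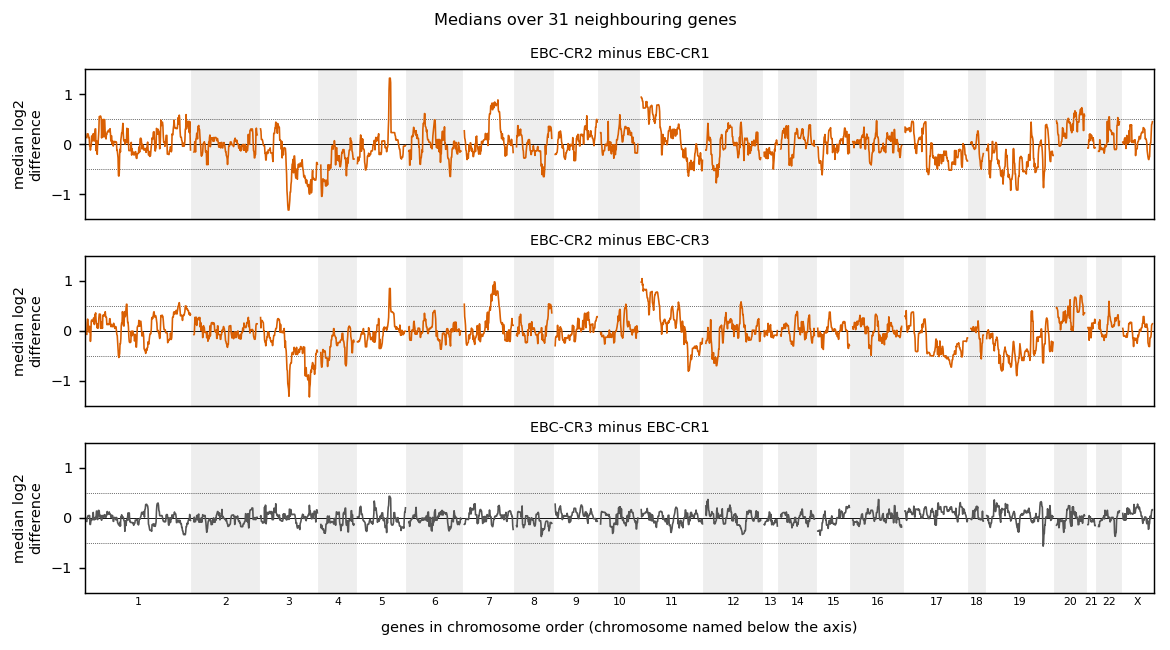
Median log2 difference over 31 neighbouring genes (vertical axis) along genes in chromosome order (horizontal axis, chromosomes named below and shaded in turn), for EBC-CR2 minus EBC-CR1 (top), EBC-CR2 minus EBC-CR3 (middle) and EBC-CR3 minus EBC-CR1 (bottom), with dotted lines at 0.5 either way. The upper panels share the EBC-CR2 library and show plateaus on chromosomes 3, 7, 11, 19 and 20, while the bottom panel stays between -0.57 and 0.43. The narrow peak on chromosome 5 is the protocadherin cluster, whose rows share 3′ ends.

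The longest stretch ran along chromosome 11 from BET1L to YPEL4. Its 216 genes had medians of 0.73 against EBC-CR1 and 0.71 against EBC-CR3. Of these, 164 lay above both other lines, against 38.9% of placed genes. Called higher were 50, against 7.2% of placed genes, and such counts follow in part from how the stretches were chosen. Medians against EBC-1 were 0.37 for EBC-CR2, -0.32 for EBC-CR1 and -0.32 for EBC-CR3, so EBC-CR2 and the other lines lay on opposite sides of the parent there. TRIM22, SAA1 and SAA2 lie in it, with CD82, a tetraspanin gene at 14.07 in EBC-CR2, against 10.27 in EBC-CR1, 10.45 in EBC-CR3 and 10.42 in EBC-1, and CTSD, the cathepsin D gene at 15.38 against 12.17, 12.46 and 14.50. Chromosome 7 from TMEM243 to KMT2E-AS1 held 119 genes with medians of 0.74 against EBC-CR1 and 0.69 against EBC-CR3, of which 91 lay above both. Against EBC-1 its medians were -0.13 for EBC-CR2, -0.80 for EBC-CR1 and -0.86 for EBC-CR3, so EBC-CR2 stayed near the parent where both others were lower. SAMD9 and SAMD9L, interferon-stimulated genes, lie there, and so does ASNS, which went the other way. Chromosome 20 had 2 stretches higher, from TOP1 to RNF114 with 56 genes and from PTPN1 to PCMTD2 with 80, and over the whole chromosome 61.8% of 317 placed genes lay above both other lines.

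Lower stretches were longest on chromosomes 3 and 19. Of all placed genes 7.2% were called higher and 7.89% lower. From PLSCR4 to TFRC, 140 genes of chromosome 3 had medians of -0.71 against EBC-CR1 and -0.75 against EBC-CR3. Of these, 104 lay below both against 40.1% of placed genes, and 37 were called lower. Against EBC-1 the medians were -0.34 for EBC-CR2, 0.47 for EBC-CR1 and 0.36 for EBC-CR3. ARHGEF26 and the pentraxin gene PTX3, at 4.78 in EBC-CR2 but 9.11 in EBC-CR1, 8.13 in EBC-CR3 and 8.19 in EBC-1, lie in it. TP63 and MUC4 lie in the same stretch and were higher in EBC-CR2, as was TNFSF10, the gene of the death ligand TRAIL, at 11.02 in EBC-CR2, against 6.64 in EBC-CR1, 7.42 in EBC-CR3 and 9.10 in EBC-1. Nearer the middle of the chromosome, from EOGT to POLQ, 82 genes had medians of -0.84 against EBC-CR1 and -0.70 against EBC-CR3, with 27 called lower and 0 higher, led by the collagen gene COL8A1 at 8.92 in EBC-CR2 but 14.44 in EBC-CR1, 14.10 in EBC-CR3 and 7.98 in EBC-1. Chromosome 19 from JUNB to ZNF302 held 143 genes with medians of -0.64 against EBC-CR1 and -0.57 against EBC-CR3, and against EBC-1 of -0.14 for EBC-CR2, 0.63 for EBC-CR1 and 0.57 for EBC-CR3. GDF15 and BST2 lie in that stretch and were higher in EBC-CR2, and a second one, from CAMSAP3 to ZNF627, held DNMT1, the maintenance DNA methyltransferase gene, at 9.81 in EBC-CR2 but 12.82 in EBC-CR1, 12.09 in EBC-CR3 and 12.69 in EBC-1, and ICAM1.

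The remaining stretches held 31 to 82 genes each, among them chromosome 12 from KLRC3 to PRICKLE1 (82 genes, lower), chromosome 11 from PAK1 to SIK2 (73, lower), chromosome 4 from LOC100129931 to DANCR (68, lower) and chromosome 17 from TOB1 to STRADA (57, lower). A stretch on chromosome 18, from C18orf54 to TMX3, held SERPINB4, SERPINB7 and SERPINB13. Gene groups were counted again over members that were placed, which leaves out those under 100 units, and then over placed members outside the stretches. Of mitosis genes 28 of 36 placed members were lower, and 23 of 29 outside the stretches. Replication genes had 23 of 39 lower when placed and 17 of 31 outside, and YAP targets 9 of 21 and 9 of 18. Of NRF2 targets 13 of 24 placed members were higher and 11 of 20 outside, and of squamous factors 7 of 12 and 5 of 7. No placed S100 gene lay in a stretch, and 8 of 10 were higher. Interferon-stimulated genes had 10 of 28 placed members higher and 6 of 21 outside. Over all placed genes 7.2% were called higher and 7.89% lower. Other groups lost most of their calls: interferon gamma targets went from 4 higher and 1 lower of 14 placed members to 1 higher and 0 lower of 8, and APOL1, APOL3 and APOL6 lie in 1 higher stretch of chromosome 22. Clade B serpins went from 1 higher and 3 lower of 7 to 0 called of 2.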

How the data were processed

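Poly(A) RNA of 4 cell lines, 1 library each, was sequenced from 3′ ends. The deposited log2 values are, as far as their form shows, log2(units + 1) of quantile-normalized counts per gene symbol: 100% of the values under 500 units were multiples of 0.25 units within 0.01 of a step, the sorted values of the 4 libraries differ by at most 0.81, and each library sums to 25.0 M units. The submitters' processing notes name Bowtie2, edgeR and hg19. Settings, counting rule and strand use were not given in the sources used here. Depth was estimated from the spacing of the 40 lowest values of each library, and exact 95% intervals (Clopper-Pearson) were taken on estimated reads, which are not independent molecules, so they cover counting error only.

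Genes at a log2 level of 3.32 or more in any resistant library were kept, EBC-CR1 and EBC-CR3 were each subtracted from EBC-CR2, and both differences had to reach 1 in one direction. Differences are on the deposited scale, which adds 1 unit and understates those of low genes. Folds are ratios of units without the added 1. The comparison, the lists and the motifs were chosen with earlier results of these data known, and 2 motifs (TGACNNNGC and TTTGAA) after values were seen. Named genes are the 15 furthest in each direction, the called members of each list with the largest differences (up to 4, or up to 6 for squamous, keratin, cornified, interferon, MHC and YAP lists), uncalled members as examples, genes beside the threshold and leading genes of chromosomal stretches. Further familiar members of the lists (such as MKI67, TOP2A and the MCM genes) were named after their values were seen. Some genes are not reported here. Alternatives were another added constant, other floors, centring, leaving out EBC-CR1 or EBC-CR3, and exchanging them. Promoters were matched by symbol to RefSeq (GRCh38.p14) for 11229 of the 14543 genes, 77.2%, of which 701 matched by an older symbol. The steps were tried on simulated reads with counting error only and no spread between cultures. That trial checks the calculation and says nothing on how many calls come from such spread. The steps were run with scipy 1.17.1, pandas 2.3.3, numpy 2.4.6 and matplotlib 3.10.9 under Python 3.11.15.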

Additional observations from a re-analysis of the deposited data

How the results depend on the processing

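The count of genes higher in EBC-CR2, 1368, was 1238 with 5 units added in place of 1, 1919 with no floor, 931 with a floor of 50 units, 1386 after centring each difference on its median and 1368 with EBC-CR1 and EBC-CR3 exchanged. The count lower, 1465, was 1221, 1707, 1011, 1425 and 1465 in the same order. Leaving out EBC-CR1 or EBC-CR3 gave 1945 and 2287 genes higher and 2082 and 2428 lower, since agreement was then asked of 1 line only. Of the 183 genes named by rule, 181 were still called with 5 units added. None changed direction, but these alternatives could hardly bring that about. Floors, the added constant, exchange and leaving out a line cannot reverse a called difference. Centring used medians of only -0.005 against EBC-CR1 and -0.018 against EBC-CR3. Likewise the 158 named genes that passed a floor of 50 units had to be called there, so these 2 results are no check. Of the 94 counts of called list members, those within 1.5 times of the value given numbered 88 with 5 units added, 84 with no floor, 83 with a floor of 50 units, 94 after centring or exchange, and 70 and 65 without EBC-CR1 and EBC-CR3. No paired analysis was possible because each line has 1 library. With 1 library per line the spread between cultures is unknown, and depth leaves the size of differences open where a library holds a few reads, as for GPX2, TRIM22 and ABCG2.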

Other observations

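Developmental gene families had calls in both directions. Over all genes compared 9.41% were called higher and 10.1% lower. HOX genes had 6 of 22 higher and 2 lower (27.3% and 9.09%), and WNT genes 4 of 26 higher and 5 lower (15.4% and 19.2%). Semaphorins with other guidance genes had 7 of 35 higher and 5 lower (20% and 14.3%). SEMA3E, a repulsive guidance cue, was at 3.95 in EBC-CR2 but 8.30 in EBC-CR1, 8.98 in EBC-CR3 and 5.04 in EBC-1, and SLIT2, a ligand of ROBO receptors, at 5.19 in EBC-CR2 but 8.90 in EBC-CR1, 9.43 in EBC-CR3 and 8.10 in EBC-1. UNC5B, a netrin receptor gene, was higher, at 6.49 in EBC-CR2, against 1.46 in EBC-CR1, 1.46 in EBC-CR3 and 1.91 in EBC-1. Nuclear receptors had 4 of 30 higher and 1 lower (13.3% and 3.33%). ESR1, the estrogen receptor gene, was at 7.52 in EBC-CR2 and 6.25 in EBC-CR3 and listed at 0 in EBC-CR1 and EBC-1.

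Cholesterol synthesis and uptake had 2 of 24 higher and 0 lower, hypoxia targets 2 of 28 higher and 4 lower, and glycolysis 1 of 21 higher and 1 lower, where 9.41% of all genes were higher and 10.1% lower. PKM, the pyruvate kinase gene, was the glycolysis gene called higher, at 15.70 in EBC-CR2, against 14.38 in EBC-CR1, 14.62 in EBC-CR3 and 15.70 in EBC-1, a level close to the parent. Desmosome and junction genes had 3 of 21 higher and 1 lower, with the tight junction gene CLDN4 at 14.17 in EBC-CR2, against 12.70 in EBC-CR1, 12.88 in EBC-CR3 and 13.13 in EBC-1.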
